A study of Mus musculus with 8 samples.

Results

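The cells described here are those annotated Macrophage by the authors among CD45+ cells of subcutaneous beta cell grafts, 7179 of 22441 cells (32.0%). They were taken by that annotation alone, from all 4 gene expression libraries, and each cell was assigned to its graft by library and hashtag number. The grafts were WT NIT-1 cells or Rnls mut NIT-1 cells, the Rnls mutant genotype of the labels. NIT-1 is an insulin-producing line that was derived from a tumor of beta cells in the NOD strain, which develops autoimmune diabetes spontaneously. Both genotypes were placed on opposite flanks of the same immunodeficient NOD.scid mice (NOD.Cg-Prkdc scid/J), which lack T and B cells and keep myeloid cells. All groups received, 4 days after the NIT-1 cells, syngenic autoreactive splenocytes from diabetic NOD mice. Graft-infiltrating CD45+ PI- cells were sorted 10 or 17 days after that transfer, from 4 grafts per genotype and day. The 4 groups held 1293 macrophages (WT, day 10), 1046 (Rnls mut, day 10), 1450 (WT, day 17) and 3390 (Rnls mut, day 17). Rnls was mutated in the grafted NIT-1 cells and not in the macrophages, and Rnls itself was not analysed here. Whether a macrophage came from the host or from the transferred spleen is not given, nor are the age and sex of the mice.

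Macrophages are phagocytes that clear dead cells and debris, present antigen on MHC class II and shape T cell responses through cytokines and checkpoint ligands. Interferon gamma from T and NK cells drives them towards antigen presentation, nitric oxide production and the chemokines Cxcl9 and Cxcl10, whereas resting tissue macrophages make complement C1q, apolipoprotein E and scavenger receptors. In the pancreas of NOD mice, macrophages are present in the islets and take part in the autoimmune process.

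Each genotype and day was 1 library, so genotype, day and library cannot be told apart within a pair of groups, and all p-values measure the spread between grafts of 1 library. The day difference averaged over genotypes rests on 2 libraries a day. A graft held 107 to 1178 macrophages with 859531 to 7661672 macrophage UMIs (unique molecules counted), and the median UMIs per macrophage were 5702, 5746.5, 7715 and 3630 in WT day 10, Rnls mut day 10, WT day 17 and Rnls mut day 17. Of the 22399 distinct cell barcodes 42 occurred in more than 1 library, and of the 7174 barcodes of macrophages 5 did. Levels below are CPM, in which the summed macrophage UMIs of every graft are scaled to the same total. Transcripts of the grafted cells were nearly absent: of 13 beta cell markers 10 were at 0 in every macrophage and their summed level was 0 to 1.16 CPM per graft, so the cell type named in the labels (beta cell) describes the graft and not the sorted cells.

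Macrophages made up a larger share of the CD45+ cells at day 17 than at day 10. In grafts 1 to 4 the share at day 10 was 25.8%, 14.8%, 15.7% and 11.7% in WT and 26.9%, 19.5%, 7.41% and 9.84% in Rnls mut grafts. At day 17 it was 29.9%, 30.6%, 79.6% and 55.5% in WT and 61.0%, 65.5%, 60.4% and 57.7% in Rnls mut grafts. Every day 17 graft lay above every day 10 graft, and the WT day 17 grafts were the most spread. The means were 17.0% ± 6.14 (SD, n = 4) and 15.9% ± 9.01 (SD, n = 4) at day 10 and 48.9% ± 23.7 (SD, n = 4) and 61.1% ± 3.23 (SD, n = 4) at day 17, for WT and Rnls mut in this order. The difference between days was 38.6 percentage points (exact permutation test of the day within genotypes, two-sided, p = 0.000408, the smallest this design allows). Within WT it was 31.9 points and within Rnls mut grafts 45.2 points (exact permutation test, two-sided, p = 0.0286 for each, the smallest that 4 against 4 grafts allow). Among annotated myeloid cells alone the day difference was 42.9 points (exact permutation test, p = 0.000408), from means of 42.6% (WT) and 39.9% (Rnls mut) at day 10 to 78.7% and 89.6% at day 17. A share can rise because other cells became fewer: 570 to 1070 T cells per graft were captured at day 10 and 103 to 586 at day 17, and the part of that change in the share was not tested.

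The genotypes did not differ in this share beyond the spread of the grafts. Rnls mut grafts were 5.57 points above WT over both days (exact permutation test of the genotype within days, two-sided, p = 0.404). The difference was -1.08 points at day 10 (exact permutation test, p = 0.857) and 12.2 points at day 17 (exact permutation test, p = 0.314). WT day 17 graft 3, with 79.6%, carries much of the spread: without it the difference over both days was 10.7 points (exact permutation test, p = 0.0935), and the day difference was 33.4 points.

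**Figure D1:**
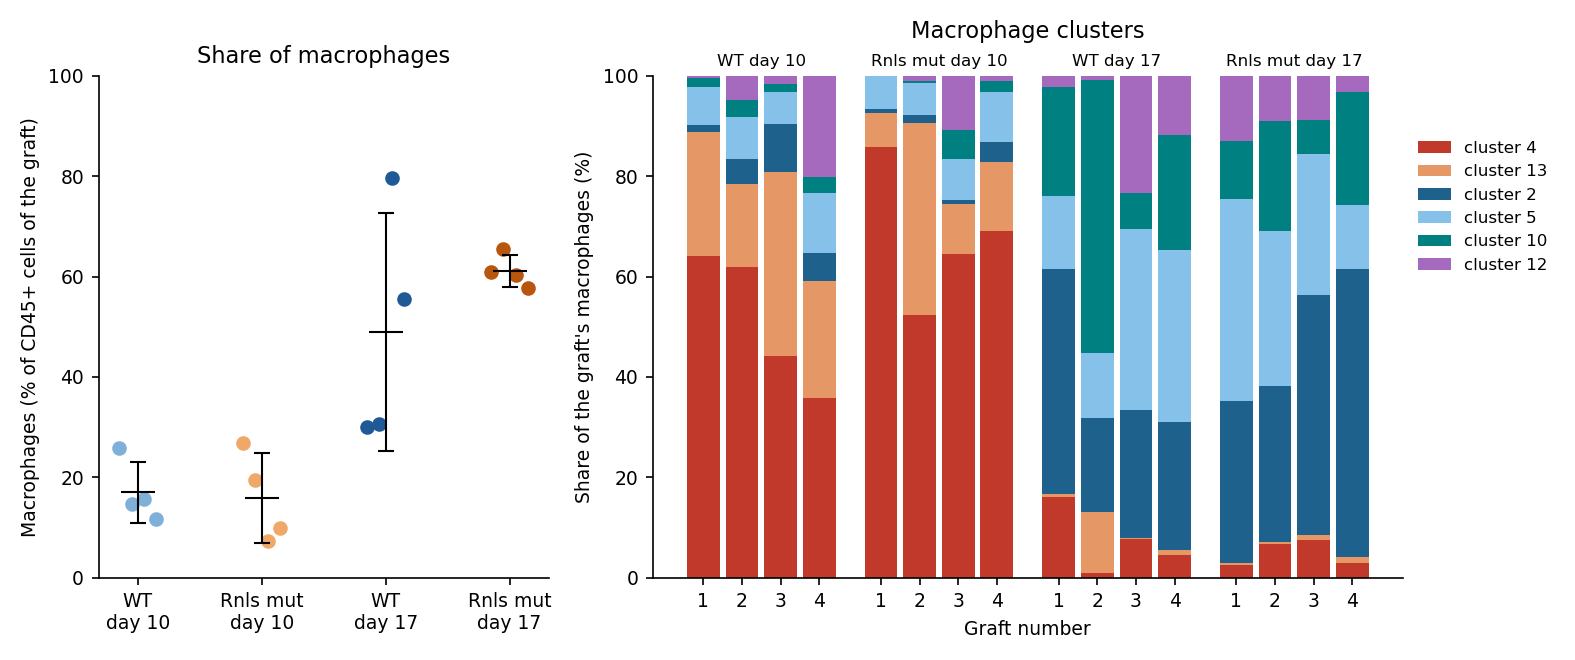
Left, macrophages as percent of all CD45+ cells, with a point per graft and the mean ± SD of each group (n = 4). Right, the share of 6 clusters among the macrophages of each graft, stacked to 100%. All day 17 grafts lie above all day 10 grafts on the left, and clusters 4 and 13 take most of every day 10 bar and little of every day 17 bar.

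The annotation was checked against markers of macrophages and of the myeloid types most like them, 2345 cells annotated Monocyte and 1104 annotated DC (dendritic cells). Since the annotation came from the same counts, these levels are a description without a test, over 16 grafts for macrophages and DC and 15 with at least 10 monocytes. Of 18 macrophage markers, 16 had a higher mean level in macrophages than in monocytes and 17 than in DC. Their grafts did not overlap for 3 markers against monocytes and for 14 against DC. The complement genes were the clearest: C1qa ranged from 720.2 to 3749 CPM in macrophages, 17.9 to 206 in monocytes and 1.52 to 37.9 in DC. C1qb ranged from 584 to 2799 CPM against 0 to 187 in monocytes, and C1qc from 387 to 1858 CPM against 0 to 103. Both encode the other chains of the C1q molecule. Lyz2 (lysozyme), at 7536 to 18649.7 CPM, overlapped with monocytes at 6795 to 16611 CPM and lay far above DC at 179.6 to 1404 CPM. Apoe, the lipid carrier apolipoprotein E, ranged from 212 to 10334 CPM, overlapping with the 2.72 to 730.2 CPM of monocytes. The marker of interferon gamma response, Cxcl9, did not separate the types, since its mean was 1.00 times that of monocytes and 0.789 times that of DC. The growth factor receptor Csf1r (0.920 times) and the Fc receptor Fcgr1 (0.721 times) were also no higher in mean level than in monocytes.

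Monocyte and DC markers were mostly lower than in the types they mark, with much overlap for monocytes. Of 14 monocyte markers 1 had a higher mean in macrophages than in monocytes, F13a1 (factor XIII A chain), and Vcan (versican) at 1.71 to 31.6 CPM was the only one below all monocyte grafts, which were at 39.2 to 177 CPM. Of the same 14 markers 8 had a higher mean in macrophages than in DC, not counting Chil3, which averaged 8.71 CPM against 0 in DC. The 14 summed to 1136 to 2217 CPM in macrophages. Plac8 overlapped, at 133 to 1078 CPM against 882 to 3701. Ace, a marker of patrolling monocytes, averaged 0.599 CPM in macrophages and 98.6 in monocytes. Of 14 DC markers none had a higher mean in macrophages than in DC, and 6 were below every DC graft. Of the 14, 12 had a higher mean than in monocytes, not counting Siglech, which averaged 0.668 CPM against 0 in monocytes. Among those below every DC graft, the cytokine receptor Flt3 was at 0 to 13.1 CPM against 64.9 to 169. The cross-presenting DC receptor Xcr1 was at 0 to 2.82 CPM against 10.4 to 357. Genes at 0 in the other type have no ratio and are left out of the ranking by ratio. The genes with the largest ratio over monocytes were Lyve1, Chp2, Mir99ahg, Cd163 and Ptprm, led by the hyaluronan receptor Lyve1 with mean levels of 32.2 against 0.0531 CPM. Over DC they were Gpnmb, Nos2, C6, Hal and Marco, where the histidine ammonia lyase gene Hal averaged 387 against 1.26 CPM and the scavenger receptor Marco 78.2 against 0.370 CPM. Free RNA adds to such counts in droplets: Lyz2 had a UMI in 37.3% of CD4 T cells, C1qa in 8.06% and Apoe in 9.56% (median 2823.5 UMIs per cell), against 99.3%, 66.1% and 58.7% of macrophages (median 4719 UMIs).

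The macrophages fell into 6 of the authors' 29 clusters, numbered 2, 4, 5, 10, 12 and 13, whose genes are given as a description because they defined the clusters. Cluster 4 (1735 cells, 24.2% of macrophages) and cluster 13 (551 cells, 7.68%) together held 83.5% of the day 10 macrophages, 59.2% to 92.6% per graft, and 6.90% of those at day 17, 2.89% to 16.8% per graft. Clusters 2 (1781 cells, 24.8%), 5 (1697 cells, 23.6%), 10 (764 cells, 10.6%) and 12 (651 cells, 9.07%) together held 16.5% at day 10 and 93.1% at day 17. The grafts of the days did not overlap in either sum. Levels of a cluster pool its cells over grafts. Among the leading genes given below, Ccr7 of cluster 4 is also a DC marker and the antibody transcripts of cluster 12 are those of plasma cells.

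Cluster 4 was the inflammatory and interferon-marked day 10 cluster. Its leading genes were Inhba (833 CPM against 27.0 in all other macrophages), which encodes the activin A subunit, Gm15056 (2377 against 89.2), Procr (134 against 4.92), 8430430B14Rik and Ccr7. It also held Cxcl9 at 2537 CPM, Il1b at 2167, Isg15 at 708, Cd274 (PD-L1) at 685 and the inducible nitric oxide synthase Nos2 at 241, with C1qa at 386 CPM. Cluster 13, the other day 10 cluster, combined high C1qa (5380 CPM) and Folr2 (folate receptor beta, 535) with the chaperones Hspb1 (759 against 16.7), Hspd1 (947) and Hsph1 (808), the chemokine Ccl7 (1244) and Il10 (55.5). Its leading genes also included the proliferation genes Hist1h2ap, Hist1h1b and Nusap1, at 41.7, 76.5 and 21.8 CPM.

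Cluster 2 was led by Cxcl13 (151 against 17.0 CPM), Cd5l (60.4 against 7.73), Klra7, Apoe (8093 against 1381) and Ednrb (227 against 41.2). It also held the selenium carrier Selenop at 3212 CPM, the mannose receptor Mrc1 at 1639 and the chemokine Ccl8 at 12130.3, near the 11271 of cluster 13. Cluster 10 was led by Retnla, a hallmark of interleukin 4 signaling in mouse macrophages, at 17357 against 162 CPM, with Fcrls (283 against 11.1), Lmo1, Klrb1a and Aldh1a2. Cluster 12 carried Wfdc21 (345 against 14.9 CPM), Ccdc80 (88.8 against 14.9) and the arginine-degrading enzyme Arg1 at 381. Fn1 (fibronectin), at 1906 CPM in cluster 12, was near the 1873 of cluster 10. The pooled levels of cluster 12 rest on few grafts: over 9 grafts Wfdc21 had a lowest, median and highest level of 7.49, 35.6 and 625 CPM, and Arg1 0, 149.5 and 644 CPM. In cluster 2, Cxcl13 likewise ranged from 0 to 383 CPM with a median of 56.6 CPM over 11 grafts. The other leading genes of cluster 12, Ighg2b, Igkc and Jchain, are antibody transcripts. In that cluster 1 cell of Rnls mut day 17 graft 1 gave 586 of 587 Ighg2b UMIs, 1109 of 1160 Igkc UMIs and 115 of 128 Jchain UMIs. Cluster 5 had the lowest median, 3265 UMIs per cell, and its leading genes were Gm26917 (209 against 68.8 CPM), Arhgap24, Taco1, Gm42418 (17316 against 6865) and Gm5150, where the numbered predicted genes may share reads with near-identical copies. H2-Aa, an MHC class II chain, was similar across the clusters, at 6738 to 8973 CPM.

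**Figure D2:**
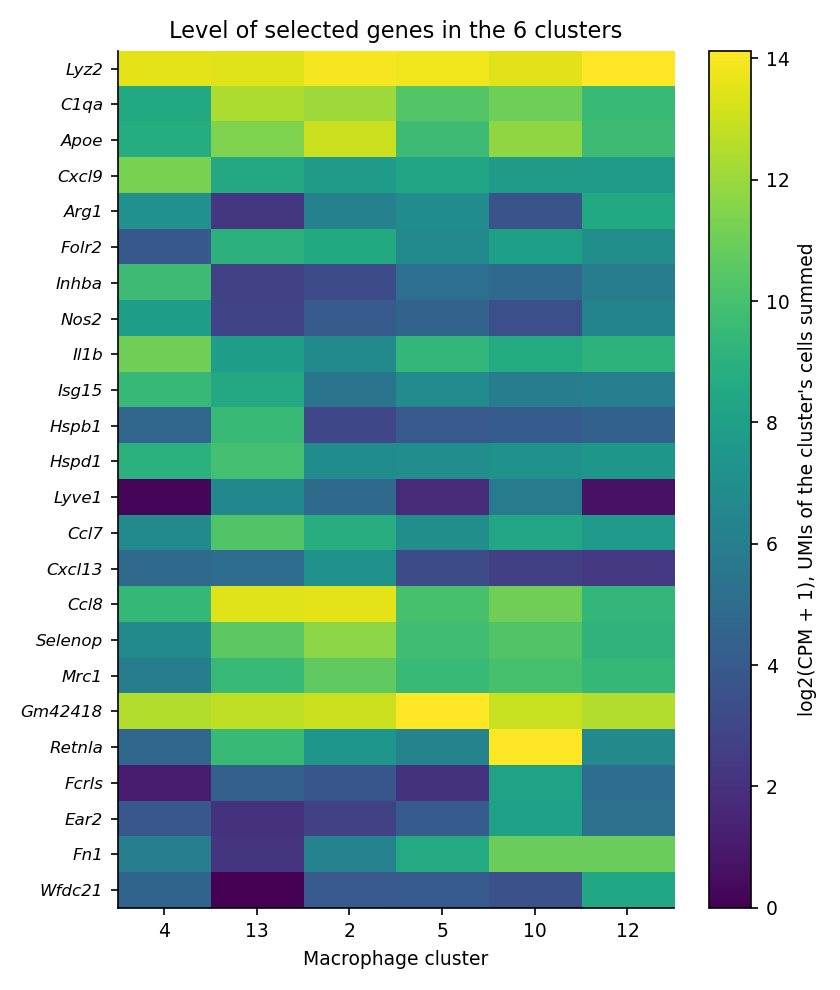
Level of 24 genes in 6 macrophage clusters, as log2(CPM + 1) with the UMIs of each cluster's cells summed. Clusters 4 and 13 are those of day 10. Cxcl9, Il1b and Inhba are highest in cluster 4, Retnla in cluster 10, Apoe in cluster 2 and Arg1 in cluster 12.

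Single grafts departed from this order. Cluster 10 ranged from 7.23% to 54.2% of the macrophages in WT day 17 grafts and from 6.84% to 22.5% in Rnls mut day 17 grafts. Cluster 2 ranged from 18.7% to 44.7% and from 31.0% to 57.5% in the same groups. At day 10, cluster 4 ranged from 35.8% to 64.2% in WT and 52.4% to 85.7% in Rnls mut grafts, and cluster 13 from 16.5% to 36.5% and 6.92% to 38.2%. The genotypes overlapped in each of these shares.

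The day difference in expression was broad. With UMIs summed per graft and tested with edgeR's quasi-likelihood test, 4752 of 9331 genes (50.9%) differed between day 17 and day 10 as a mean of both genotypes at a Benjamini-Hochberg adjusted p of 0.05. Of all genes tested, 25.6% were higher (2389 genes) and 25.3% lower (2363 genes) at day 17. Within WT grafts 2344 genes (25.1%) were called and within Rnls mut grafts 3923 genes (42%). All 8 day 17 grafts lay above all 8 day 10 grafts for 955 genes (10.2%) and below them for 369 genes (3.95%). The balance of directions depended on the scaling: with library totals instead of TMM factors, 3366 genes were higher and 1626 lower (67.4% higher instead of 50.3%), as the median of all genes moved from 0.02 to 0.18 on the log2 scale. Counts per gene list below are to be read against these shares of all genes.

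Genes of C1q-rich, tissue-resident type macrophages were higher at day 17: of 28 tested, 16 rose and 0 fell (median log2 fold change 0.78, all genes 0.02). Mrc1, the mannose receptor (chromosome 2, 14229392 to 14332057, plus strand, GRCm38), is an example without overlap. It was at 271, 215, 398 and 348 CPM in WT and 84.9, 416, 122 and 207 CPM in Rnls mut grafts at day 10, and at 1298, 1426, 887 and 783 and at 1073, 1108, 1204 and 1263 CPM at day 17. The log2 fold change was 2.01 ± 0.25 (SE, adjusted p = 5.36e-06). Apoe (chromosome 7, 19696109 to 19699188, minus strand) rose by 2.60 ± 0.50 (adjusted p = 0.000376), from a lowest, median and highest graft of 212, 633 and 2269 CPM to 1088, 5595 and 10334 CPM, and the days overlapped. Selenop rose by 1.81 ± 0.31, from a median of 464 to 1715 CPM. Trem2, a receptor for lipids and dying cells, rose by 1.51 ± 0.26, from 21.8 to 84.4 CPM up to 114 to 296 CPM without overlap. The scavenger receptor for hemoglobin, Cd163, rose by 1.78 ± 0.55 (adjusted p = 0.0125), and Csf1r by 0.78 ± 0.12.

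The C1q chains themselves, which give the group its name, did not pass. C1qa (chromosome 4, 136895917 to 136898803, minus strand) was at 720.2, 1599 and 2932 CPM (lowest, median, highest) at day 10 and 1562, 2822 and 3749 CPM at day 17, with a log2 fold change of 0.52 ± 0.25 (adjusted p = 0.0938). C1qb had 0.50 ± 0.26 and C1qc 0.52 ± 0.23. Without Rnls mut day 10 graft 2, the highest day 10 graft in C1qa, the day difference of C1qa was 0.80 (adjusted p = 0.00344) and that of Folr2 1.09 (adjusted p = 0.00979). With all grafts Folr2 had 0.62 ± 0.38 (adjusted p = 0.18). Lyz2 (chromosome 10, 117277331 to 117282321, minus strand) rose by 0.50 ± 0.15 (adjusted p = 0.00878), with WT day 17 graft 2 at 8085 CPM inside the day 10 range and the other day 17 grafts at 14362 to 18649.7 CPM.

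Genes of alternative activation and arginine metabolism moved both ways: 6 of 24 rose and 11 fell (median -0.53). Retnla (chromosome 16, 48842551 to 48844461, plus strand) rose by 2.88 ± 0.47 (adjusted p = 8.86e-05), from 104, 509 and 1070.3 CPM to 1524, 4541 and 11135 CPM, with no overlap between days. Fn1 rose by 3.03 ± 0.58, from a median of 48.8 to 730.3 CPM. The enzymes Ass1 (arginine recycling) and Odc1 (polyamine synthesis) fell by 2.47 and 1.26 on the log2 scale, Ass1 from 249 to 564 CPM down to 32.4 to 127 CPM. Ccl17, a T cell chemokine, was at 8.12 to 85.3 CPM at day 10 and at 0 to 2.79 CPM at day 17. Arg1 itself (chromosome 10, 24915221 to 24927484, minus strand) was at 115, 35.1, 9.52 and 59.2 CPM in WT and 227, 90.8, 216 and 111 CPM in Rnls mut grafts at day 10, and at 2.08, 1.16, 276 and 39.7 and at 90.3, 38.1, 142 and 24.7 CPM at day 17. Its log2 fold change was -0.36 ± 0.62 (adjusted p = 0.652), and without WT day 17 graft 3, the one at 276 CPM, it was -1.61 (adjusted p = 0.0196).

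**Figure D3:**
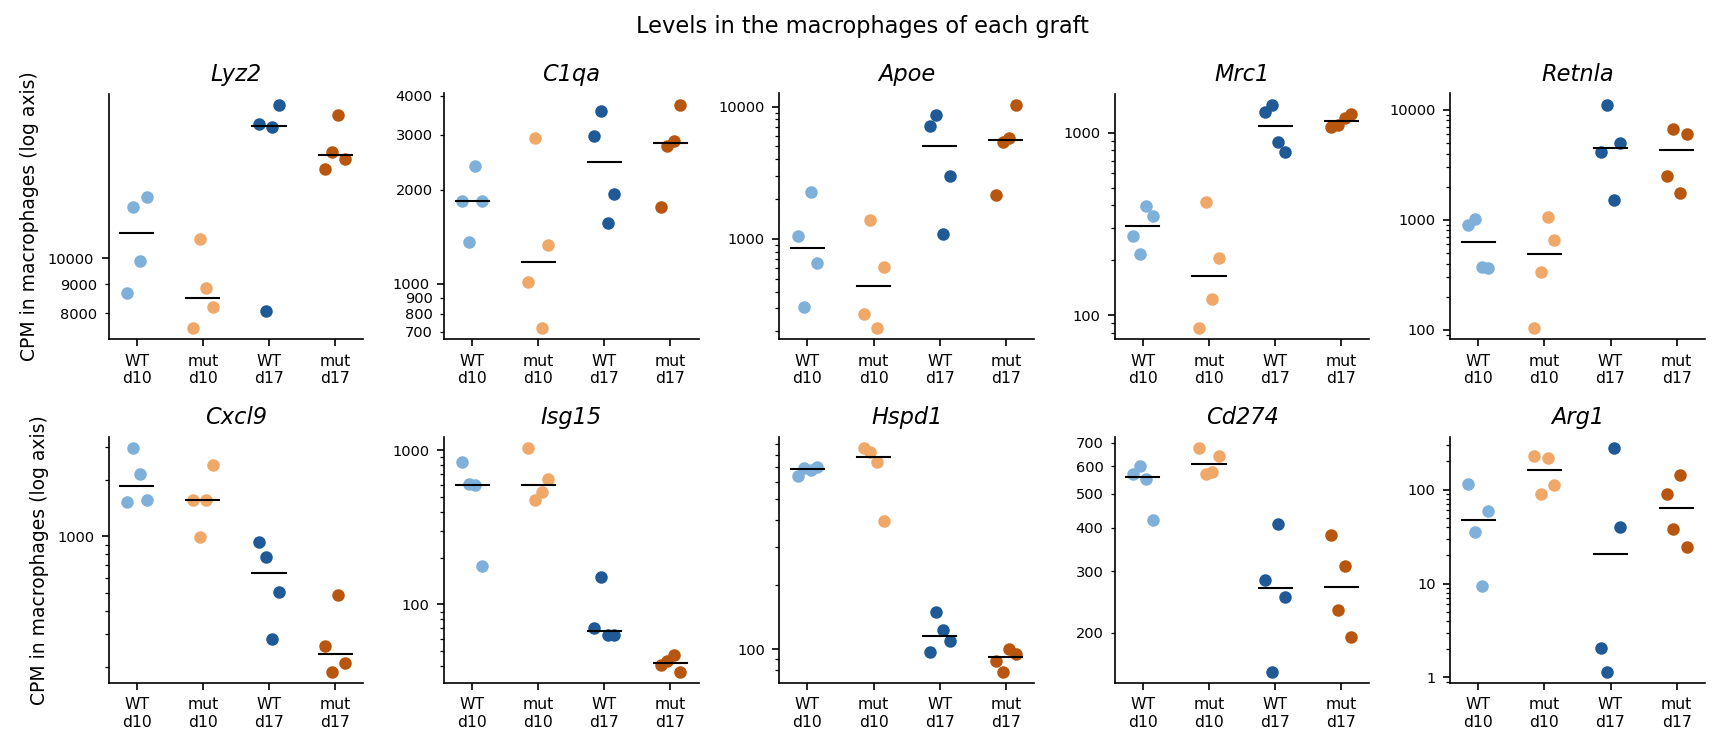
Levels of 10 genes in the macrophages of each graft, in CPM on a log axis, by group with a point per graft and a line at the group median. Mrc1 and Retnla lie higher and Isg15, Cxcl9 and Hspd1 lower in all day 17 grafts, and Arg1 spreads from 1.16 to 276 CPM.

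Interferon-induced genes were lower at day 17. Of 27 type I interferon-induced genes 25 fell and 0 rose (median -1.06), and of 41 interferon gamma-induced genes 33 fell and 1 rose (median -0.82), where the riser was Ciita, the regulator of MHC class II. Isg15 (chromosome 4, 156199424 to 156200818, minus strand), a ubiquitin-like protein, was at 839, 603, 594 and 178 CPM in WT and 1034, 476, 538 and 648 CPM in Rnls mut grafts at day 10. At day 17 it was at 70.3, 150.2, 63.7 and 63.0 CPM and at 40.5, 43.2, 47.2 and 36.7 CPM. The days did not overlap, and the log2 fold change was -3.51 ± 0.28 (adjusted p = 8.40e-08). Rsad2, an antiviral enzyme, fell by 2.41 (SE 0.23), Ifit3 by 2.03 (SE 0.28) and Irf7, the factor that amplifies interferon production, by 1.98 (SE 0.18).

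The chemokines that attract Cxcr3-bearing T cells fell as well. Cxcl9 (chromosome 5, 92321347 to 92328079, minus strand) went from 996, 1566 and 2949 CPM to 189.9, 384 and 936 CPM, a log2 fold change of -2.26 ± 0.26 (adjusted p = 2.40e-06). Cxcl10 (chromosome 5, 92346638 to 92348889, minus strand) went from 587, 721 and 1183 CPM to 59.5, 164 and 245 CPM, a log2 fold change of -2.51 ± 0.22. Both genes had no overlap between days. The interferon regulatory factor Irf1 fell by 0.46 (SE 0.12), the feedback inhibitor Socs1 by 1.96 (SE 0.21) and the GTPase gene Gbp2 by 0.73 (SE 0.22). Nos2, downstream of interferon gamma and microbial signals, fell by 2.56 (SE 0.41).

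Promoters of many of these genes hold the sequence elements through which interferon factors are known to act. The lists are of genes known as interferon-induced, so such elements are likely in them whatever their change with the day. The part of the elements in the day difference was not tested. In the 250 bases before the start of each gene (RefSeq, GRCm38.p6, both strands), the interferon-stimulated response element, read as GAAA, any 2 bases and GAAA again, occurred in 12 of 23 type I interferon-induced genes (52.2%) and 14 of 26 interferon gamma-induced genes (53.8%), against 2.98% of all 32851 promoters. The letters TTCNNNGAA of the gamma-activated site occurred in 10 of 26 interferon gamma-induced genes (38.5%) against 7.02% of all promoters. Over all tested genes, without a test, the response element was in 5.85% of 1864 lower genes, 2.44% of 1889 higher genes and 3.69% of all 7453 tested genes with a promoter. The letters of the gamma-activated site were in 6.97%, 6.88% and 7.19% of the same genes, in this order. A gene counted when any of its promoters matched, whereas the 32851 promoters were counted singly, so these shares are of unlike units. A match is a description of the letters and not a measured site. The stretches below run 5′ to 3′ in the direction of the gene, with the matches in capitals. Isg15 holds 3 overlapping matches at chr4:156200830-156200929 (minus strand), Ifit3 2 separate ones on the other strand at chr19:34583362-34583461 (plus strand), Cxcl10 1 at chr5:92349040-92349139 (minus strand), and Irf1 the gamma-activated letters at chr11:53769879-53769978 (plus strand).
Isg15: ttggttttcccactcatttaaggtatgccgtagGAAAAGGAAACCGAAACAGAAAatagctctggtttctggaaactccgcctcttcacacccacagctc
Ifit3: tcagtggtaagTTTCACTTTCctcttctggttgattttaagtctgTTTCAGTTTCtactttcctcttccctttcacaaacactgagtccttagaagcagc
Cxcl10: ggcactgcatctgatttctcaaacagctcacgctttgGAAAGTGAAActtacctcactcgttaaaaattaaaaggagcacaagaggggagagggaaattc
Irf1: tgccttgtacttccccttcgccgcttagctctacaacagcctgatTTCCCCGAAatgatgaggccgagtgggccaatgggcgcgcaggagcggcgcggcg

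Antigen presentation split by class. Of 22 MHC class I presentation genes 15 fell and 0 rose (median -0.58), among them genes of the proteasome. Psme2, a subunit of the interferon-induced proteasome activator, went from 793 to 1063 CPM down to 220.0 to 522 CPM (log2 fold change -1.52 ± 0.11, adjusted p = 3.17e-08). The immunoproteasome subunit Psmb8 fell by 1.05 (SE 0.08) and Psmb10 by 1.06 (SE 0.10). The heavy chains H2-K1 (-0.11 ± 0.09) and H2-D1 (-0.02 ± 0.08) did not pass, and B2m, their light chain, fell by 0.26 (SE 0.08). Among 47 tested genes with a proteasome subunit symbol, a group chosen after values were seen, 42 fell and 1 rose.

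MHC class II presentation genes were mixed, with 2 of 10 higher and 3 lower (median 0.06), and 5 higher and 1 lower under scaling by library totals. H2-Aa was at 5911 to 7535 CPM at day 10 and 6575 to 9947 CPM at day 17 and rose by 0.26 ± 0.09 (adjusted p = 0.0169). The other class II chains H2-Ab1 (0.02 ± 0.08) and H2-Eb1 (0.11 ± 0.10) did not pass, and they did under scaling by library totals. Ciita rose by 0.60 ± 0.14, and Ifi30, a thiol reductase of the class II pathway, fell by 1.09 (SE 0.15).

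Among checkpoint and cytokine genes, the PD-1 ligand fell. Cd274 (chromosome 19, 29367455 to 29388095, plus strand), which encodes the PD-1 ligand PD-L1, was at 568, 600.4, 551 and 421 CPM in WT and 676, 571, 576 and 643 CPM in Rnls mut grafts at day 10. At day 17 it was at 284, 155, 409 and 252 CPM and at 381, 232, 311 and 194 CPM, below every day 10 graft, with a log2 fold change of -1.20 ± 0.16 (adjusted p = 1.02e-05). Of 22 inhibitory and costimulatory genes 11 fell and 2 rose, and 8 fell and 6 rose under scaling by library totals. The costimulatory receptor Cd40 (-1.21 ± 0.13) and the inhibitory receptor Havcr2 (-1.62 ± 0.18) were among those that fell. Osm, oncostatin M, went from 32.4, 88.7 and 196 CPM to 30.0, 50.4 and 80.6 CPM with overlap and fell by 1.00 on the log2 scale (SE 0.21, adjusted p = 0.00081). Tgfb1 (0.25 ± 0.11, adjusted p = 0.0725) and the CD47 receptor Sirpa (0.18 ± 0.11) did not pass, and both passed under scaling by library totals with 0.40 and 0.33. Of 17 genes of the TGF-beta list 5 rose and 6 fell, and 8 rose and 4 fell under that scaling. The receptor Tgfbr2 rose by 1.19 ± 0.21.

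Inflammatory genes of the NF-kB type were mostly lower, 20 of 33 falling and 3 rising (median -0.80). Il1b, the cytokine interleukin 1 beta, went from 665, 1399 and 2526 CPM to 241, 538 and 794 CPM (-1.60 ± 0.23, adjusted p = 2.82e-05), with overlap between days. Il1rn, its antagonist, fell by 2.05 (SE 0.16) and the superoxide dismutase Sod2 by 1.70 (SE 0.21). Inhba, at 171 to 1079 CPM, fell to 19.6 to 112 CPM (-3.66 ± 0.35, adjusted p = 4.47e-07). The neutrophil chemokine Cxcl2 did not pass (-0.26 ± 0.20). Of 26 chemokine genes and receptors 7 rose and 10 fell, and of these Ccl5 fell by 2.08 (SE 0.40), a gene that T and NK cells make at high levels.

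**Figure D4:**
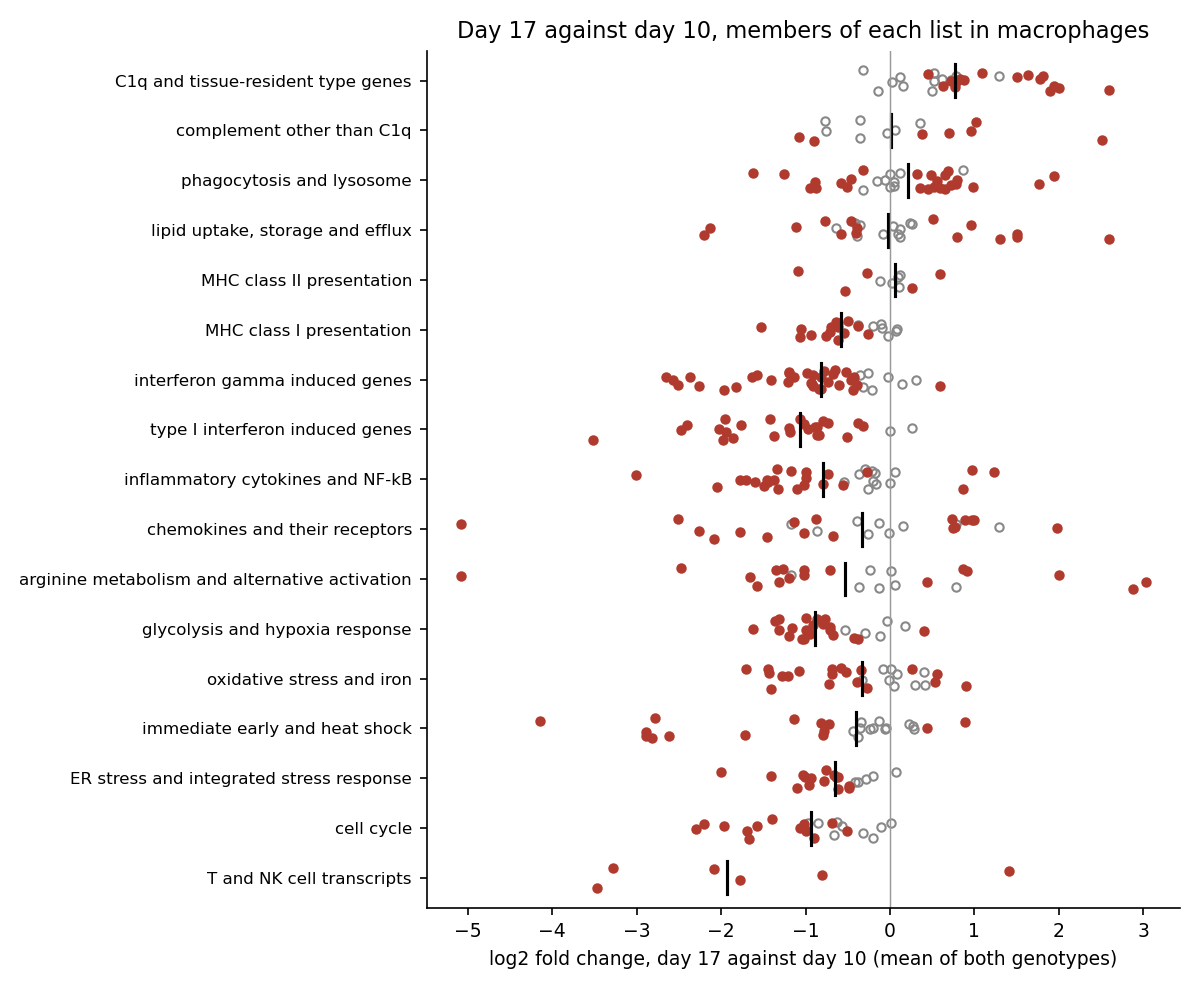
Log2 fold change of day 17 against day 10 in macrophages for the members of 17 gene lists, with a point per gene, filled red where the adjusted p was under 0.05 and open grey where it was not, and a bar at the median. Interferon-induced and glycolysis genes lie mostly below 0 and C1q and tissue-resident type genes above.

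Of the 10 genes with the smallest p among those that fell, 4 were chaperones of the heat shock response. Hspd1, the mitochondrial chaperonin HSP60 (chromosome 1, 55077835 to 55088243, minus strand), was at 635, 698, 679.6 and 705 CPM in WT and 859.6, 828, 742 and 393 CPM in Rnls mut grafts at day 10. At day 17 it was at 97.3, 149, 123 and 109 CPM and at 88.6, 78.9, 101 and 95.5 CPM, with no overlap (-2.89 ± 0.15, adjusted p = 1.55e-09). Hspe1, its cochaperonin on the plus strand (55088132 to 55091307), went from 635, 1149 and 1322 CPM to 180.1, 204 and 264 CPM (-2.53 ± 0.14). Hsph1, a nucleotide exchange factor for HSP70, fell by 4.15 (SE 0.27), from 229 to 673 CPM down to 14.1 to 52.0 CPM. Hsp90aa1 fell by 2.89 (SE 0.22), Hsp90ab1 by 1.72 (SE 0.11) and Dnajb1 by 2.82 (SE 0.25). Of the whole list of immediate early and heat shock genes 12 of 26 fell and 2 rose (median -0.41). A stretch before the RefSeq start of both Hspd1 and Hspe1 is shown, which lies inside the longer GENCODE span of Hspd1. It holds the letters GAANNTTC of a heat shock element at chr1:55088053-55088082, read here on the plus strand, the direction of Hspe1.
Hspe1: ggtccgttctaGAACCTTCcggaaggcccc

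These letters were in 4 of 21 promoters of that list (19.0%) and in 6.69% of all promoters. The chaperones fell in the other cells of the same grafts too: Hspd1 had a log2 fold change of -2.93 in monocytes, -2.70 in DC and -2.63 in all CD45+ cells other than macrophages, and Hspe1 -2.57, -1.76 and -2.14. As each day was processed as its own libraries, a change shared by all cells of the day 10 libraries and one of the grafts with time cannot be told apart here.

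Nuclear genes of metabolism and stress moved mainly down. Of 28 glycolysis and hypoxia genes 22 fell and 1 rose (median -0.89): Hif1a, the hypoxia factor, fell by 0.99 (SE 0.14), the glucose transporter Slc2a1 by 1.37 (SE 0.21) and Gapdh by 1.04 (SE 0.18). Of 28 oxidative stress and iron genes 15 fell and 4 rose (median -0.33), among them Fth1, ferritin heavy chain, from 17375 to 34151 CPM down to 8567 to 16847 CPM (-1.20 ± 0.15), and Hmox1, heme oxygenase, by 1.44 (SE 0.21). Of 20 ER stress genes 15 fell and 0 rose (median -0.65), and of 22 cell cycle genes 13 fell and 0 rose (median -0.94). Of 13 mitochondrially encoded genes 1 rose and 2 fell, and 4 rose and 1 fell under scaling by library totals.

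Lysosomal genes were more often higher, with 16 of 34 rising and 9 falling (median 0.22). The proteases Ctsb (0.66 ± 0.14) and Lgmn (0.78 ± 0.13) and the progranulin gene Grn (0.69 ± 0.11) rose, Lgmn from 230.4 to 444 CPM up to 557 to 815 CPM, while the proteases Ctsc (-0.88 ± 0.10) and Ctsz (-0.51 ± 0.07) fell. Of 26 lipid genes 7 rose and 8 fell (median -0.03), and 7 rose and 6 fell under scaling by library totals, where the cholesterol exporter Abca1 rose by 1.30 ± 0.13, from 204 to 256 CPM up to 284 to 779 CPM without overlap. Complement genes other than C1q had 5 of 14 higher and 2 lower (median 0.01), where factor B, Cfb, fell by 1.07 (SE 0.17). Of 16 Fc receptor and adaptor genes 2 rose and 6 fell (median -0.12), and 6 rose and 6 fell under scaling by library totals. Fcgr1, the high-affinity receptor that interferon gamma induces, fell by 0.93 (SE 0.14).

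The genes with the smallest p among those that rose were Pid1, Insr, Agmo, Sbf2, Frmd4b, Vps13b, Sgms1, Tbc1d5, Zbtb20 and Dhrs3, and among those that fell Hspd1, Polr2l, Hspe1, Hcar2, Hsp90ab1, AA467197, Hsph1, Psme2, Psmc2 and Gm31763. The insulin receptor Insr had the tightest values, 9.67 to 10.6 CPM in all day 10 grafts and 28.9 to 35.9 CPM at day 17 (1.52 ± 0.09, adjusted p = 6.25e-09). Pid1, a regulator of insulin signaling, was at 61.3 to 87.1 CPM and then 222 to 369.7 CPM (1.86 ± 0.11), and Agmo, an ether lipid-cleaving enzyme, at 3.65 to 12.9 CPM and then 54.8 to 123 CPM (3.35 ± 0.21). Several of the risers are long genes, Pid1 spanning 327.9 kb, Agmo 340.6 kb and Insr 157.6 kb, and gene length moved with the day difference. In 4 equal bins of gene length (9260 of 9331 genes matched, median 5.67, 16.8, 36.7 and 102.2 kb) the median log2 fold change was -0.25, -0.13, 0.09 and 0.38. The share of higher genes was 10.6%, 14.6%, 24.5% and 52.8%. All CD45+ cells other than macrophages showed medians of -0.21, -0.09, 0.04 and 0.24 in the same bins. The part of gene length in the day difference was not tested.

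Transcripts listed as those of other cells moved with the day as well. The summed level of 24 T and NK cell transcripts in macrophages was 920.2 to 2859 CPM (WT) and 1790.4 to 5545 CPM (Rnls mut) at day 10 and 390.5 to 1270.5 CPM and 531.5 to 1250.2 CPM at day 17, none of the 24 being at 0 in all macrophages. Of the 6 that passed the filter on low counts 5 fell and 1 rose. Among those that fell was the granzyme gene Gzma, from a median of 18.6 to 2.33 CPM. The sum includes Ccl5, the list member of highest mean level in macrophages, and whether macrophages made it themselves was not tested. The part of the listed transcripts in the day difference was not tested. Leaving out the 28 macrophages with at least 2 T cell receptor or CD3 UMIs left the count of called genes within 1.5 times. Other cell classes were low in all groups: 8 granulocyte transcripts summed to 54.7 to 103.5 CPM, 10 stroma transcripts to 19.1 to 69.7 CPM and 5 erythroid transcripts to 0 to 3.47 CPM. Of monocyte genes 2 of 12 tested rose and 6 fell, and of DC genes 0 of 7 rose and 4 fell.

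Because the days differ in cluster makeup, the day difference was also fitted inside the clusters that had enough grafts at both days, as an alternative to all macrophages. Cluster 4 kept 2 WT and 3 Rnls mut grafts with at least 10 cells at day 17, and cluster 5 kept all 16 grafts. In cluster 4 alone 1243 of 7620 genes (16.3%) were called, 603 higher and 640 lower, and in cluster 5 alone 476 of 2520 genes (18.9%), 230 higher and 246 lower. Interferon-induced and tissue-resident type genes kept their balance of directions in both. Type I interferon-induced genes fell in 19 of 26 tested in cluster 4 and 12 of 14 in cluster 5, and interferon gamma-induced genes in 19 of 40 and 15 of 33, with 0 rising in each. C1q and tissue-resident type genes rose in 9 of 21 and 11 of 16, with 0 falling. Some other lists did not. Oxidative stress and iron genes had 7 of 28 higher and 4 lower in cluster 4, and chemokine genes 6 of 16 higher and 4 lower in cluster 5, where more had fallen than risen in all macrophages. Of glycolysis and hypoxia genes 5 of 27 fell in cluster 4 and 1 of 20 in cluster 5, of inflammatory genes 6 of 34 and 5 of 23, and of cell cycle genes 4 of 9 and 0 of 5. Shares of called glycolysis and inflammatory genes in cluster 4 were near that of all genes.

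Apoe had a log2 fold change of 3.21 in cluster 4 and 3.45 in cluster 5, and Mrc1 1.87 and 1.93, all called. For others the change within a cluster was smaller than in all macrophages or not called. Isg15 had -2.56 and -3.07, and Hspd1 -2.57 and -1.91, all called. Cxcl9 was not called within cluster 4 (-0.61, adjusted p = 0.122) and was within cluster 5 (-1.96). Cd274 had -0.42 and -1.25, and Osm was called in neither (-0.65 and -0.26). Lyz2 rose by 1.36 and 1.12 within these clusters, against 0.50 in all macrophages.

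The day difference of macrophages was set against that of monocytes and DC in the same grafts, with the graft as a block and the difference of the differences tested. The other types were few at day 17, with 7 to 91 monocytes and 12 to 61 DC per graft. At day 10 a graft held 168 to 400 monocytes and 64 to 147 DC. The graft with 7 monocytes was left out of the comparison with monocytes. Against monocytes (15 grafts) 657 of 9595 genes (6.85%) differed, 432 with a more positive and 225 with a more negative change in macrophages. The count rests on single grafts, being 326 without WT day 17 graft 1, 411 without Rnls mut day 17 graft 2 and 1013 without WT day 17 graft 3. Il1b turned opposite ways, -1.60 in macrophages and 1.09 in monocytes (difference -2.36 ± 0.26, adjusted p = 7.13e-06). Among the other genes with the smallest p were the kinase gene Sgk1 (-0.58 and 1.77), the cystine transporter Slc7a11 (-1.41 and 1.94) and Ass1, lower in macrophages by 1.43 relative to monocytes. On the higher side were Ahnak (1.29 ± 0.15), Snx9 (1.57), Socs6 (2.17), Dhrs3 (2.49) and Hal (2.38). MHC class II presentation genes were shifted up relative to monocytes in 7 of 10 tested and down in 0 (median 0.69, all genes 0.16). Inflammatory genes were shifted down in 12 of 32 and up in 0, and lysosomal genes up in 10 of 34 and down in 2. Of 22 MHC class I genes 0 differed in either direction. Type I interferon-induced genes were shifted up in 2 of 27 and down in 1 (median 0.15), and interferon gamma-induced genes up in 2 of 41 and down in 7 (median -0.20).

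Against DC (16 grafts) 1009 of 8985 genes (11.2%) differed, 542 more positive and 467 more negative in macrophages. Clec9a, a DC receptor for dead cells, had -2.48 in macrophages and 1.73 in DC (difference -4.19), and Havcr2, the inhibitory receptor Tim-3, -1.62 and 1.04 (-2.58). The interferon-inducible Ifi47 had -0.43 in macrophages and -2.04 in DC (difference 1.76 ± 0.18), and interferon gamma-induced genes were shifted up in 14 of 40 and down in 3. Immediate early and heat shock genes were shifted down in 16 of 26 and up in 0 (median -0.77), with the immediate early gene Nr4a1 at -2.33. Igkc, at 7.90, is the antibody transcript of which 1 cell gave most UMIs in cluster 12. Outside cluster 12 its pooled level ranged from 3.50 CPM in cluster 13 to 25.8 CPM in cluster 5. The part of that cell in the difference was not tested.

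**Figure D5:**
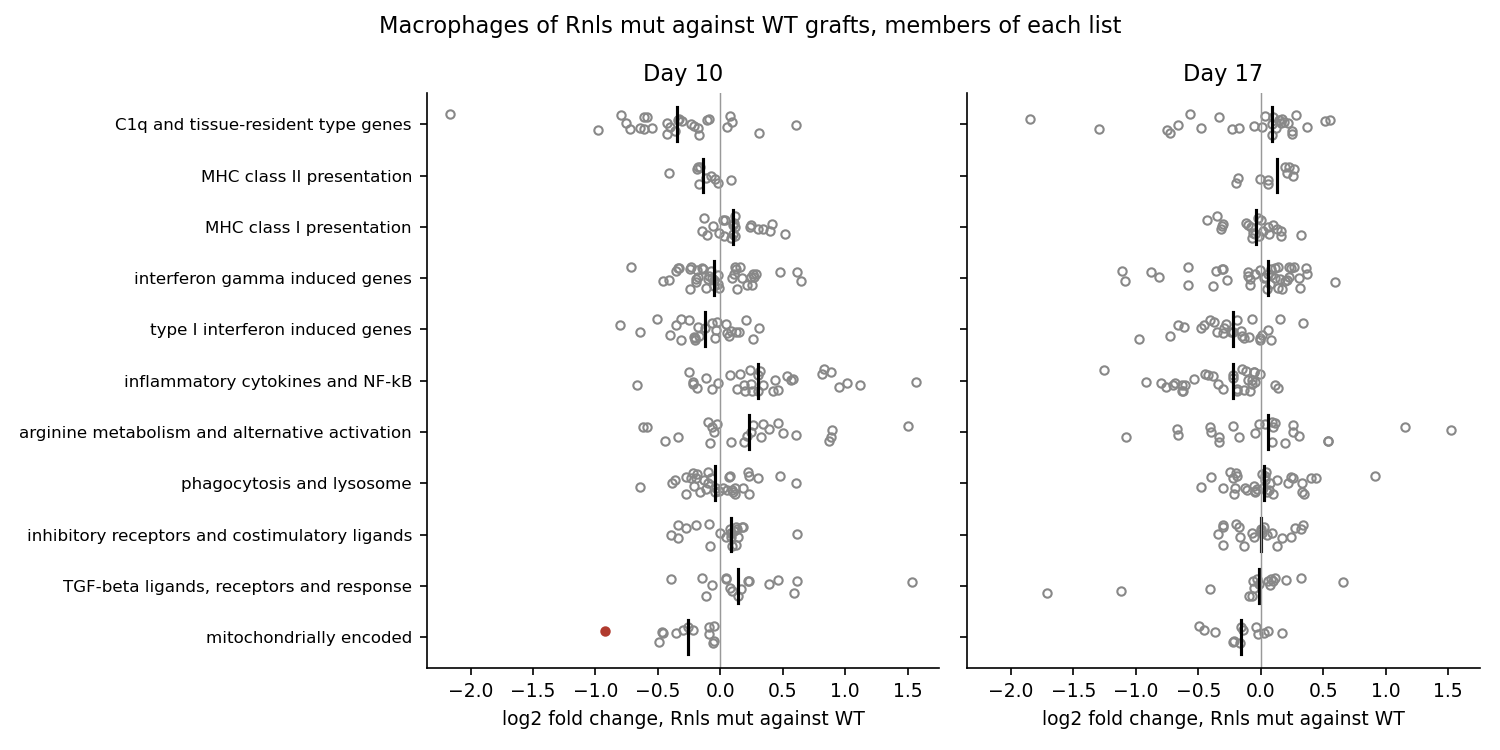
Log2 fold change of Rnls mut against WT in macrophages at day 10 and at day 17 for the members of 11 gene lists, with a point per gene and a bar at the median. Filled points have an adjusted p under 0.05, and only mt-Atp8 at day 10 is filled.

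The genotype of the graft left few differences between macrophages. With edgeR's quasi-likelihood test, 3 of 9331 genes (0.0322%) differed between Rnls mut and WT grafts at day 10 at an adjusted p of 0.05, all lower in Rnls mut, with 659 at an unadjusted p of 0.05. The flanks of a mouse pair the genotypes, but which graft numbers share a mouse is not given, and the fit treats grafts as unpaired. With the hashtag number as a replicate block, 0 genes were called at day 10 and 1 for the difference between days, where Gm10076 lost its call at day 10. At day 17 and over the mean of both days 0 genes (0%) were called, with 573 and 383 at an unadjusted p of 0.05, and DESeq2 called 16 at day 10, 13 at day 17 and 0 over both. The test of whether the genotype effect differed between days called 3 genes (0.0322%), all more positive at day 17, with 873 at an unadjusted p of 0.05 and 43 by DESeq2.

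None of the called genes was among the markers of macrophages. Gm10076 (chromosome 14, 105681828 to 105682211, plus strand), a numbered predicted gene that may share reads with near-identical copies, was at 401, 454, 431 and 488 CPM in WT and 216, 237, 230.4 and 263 CPM in Rnls mut grafts at day 10 (-0.94 ± 0.12, adjusted p = 0.00243). At day 17 the order was the opposite, 126, 138, 139 and 164 CPM in WT and 226, 206, 187 and 188 CPM in Rnls mut grafts (0.52 ± 0.12, adjusted p = 0.637), and the difference between days was 1.46 (adjusted p = 0.000644). Cmss1 (chromosome 16, 57302000 to 57606864, minus strand) was at 394 to 495 CPM in WT and 176 to 265 CPM in Rnls mut grafts at day 10 (-0.93 ± 0.15, adjusted p = 0.0268), with 0.36 ± 0.15 at day 17 and a difference between days of 1.29 (adjusted p = 0.0303). mt-Atp8 (mitochondrial genome, 7766 to 7969, plus strand), an ATP synthase subunit that overlaps mt-Atp6, was at 209.9 to 327 and 132 to 183 CPM at day 10 (-0.93 ± 0.15, adjusted p = 0.0268). Nsa2 (chromosome 13, 97129424 to 97137937, minus strand), a ribosome assembly factor, had -0.43 ± 0.10 at day 10 and 0.47 ± 0.10 at day 17, with a difference of 0.90 (adjusted p = 0.0303).

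The same genes differed in the other cells of these libraries. In all CD45+ cells other than macrophages, Gm10076 had -0.83, mt-Atp8 -0.78 and Cmss1 -0.78 at day 10, all called there, and Gm10076 0.64 and Nsa2 0.42 at day 17, also called. The genotype and the library cannot be told apart for them. The day 10 count was 1 to 4 and the count for the difference between days 1 to 9 when each graft was left out in turn, and Gm10076 was the one called in every leave-out at day 10.

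Genes that bear on the study's question of how Rnls mut grafts shape immune cells did not pass in macrophages at either day. Osm was at 83.2, 74.6, 80.7 and 32.4 CPM in WT and 196, 111, 94.2 and 105 CPM in Rnls mut grafts at day 10, without overlap (0.89 ± 0.29, adjusted p = 0.519), and at day 17 the genotypes overlapped (-0.05 ± 0.30). In other cells of the day 10 libraries Osm had 0.91 ± 0.25 in monocytes and 0.59 ± 0.39 in DC. In all CD45+ cells other than macrophages it had 0.81 ± 0.24, and it was called in none of these. Tgfb1 had 0.14 ± 0.16 at day 10 and -0.09 ± 0.16 at day 17. Cd274 had 0.18 ± 0.22 and 0.03 ± 0.22, and Sirpa 0.09 ± 0.16 and 0.13 ± 0.16. H2-Aa had -0.16 ± 0.12 and 0.19 ± 0.12, H2-Ab1 -0.18 ± 0.11 and 0.23 ± 0.11, and H2-Eb1 -0.18 ± 0.14 and 0.27 ± 0.14. The values for Cxcl9 were -0.36 ± 0.35 and -1.11 ± 0.36, for Arg1 1.50 ± 0.90 and -0.22 ± 0.85, for Folr2 -0.62 ± 0.54 and -0.23 ± 0.52 and for Apoe -0.80 ± 0.68 and 0.28 ± 0.67, each with its SE.

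No member of the gene lists was called between genotypes except mt-Atp8. The medians at day 10 and day 17 were -0.35 and 0.09 for C1q and tissue-resident type genes, -0.06 and 0.06 for interferon gamma-induced genes, 0.30 and -0.23 for inflammatory genes, 0.48 and -0.17 for glycolysis and hypoxia genes and 0.14 and -0.02 for the TGF-beta list, where the median of all genes was -0.01 at both days. These medians are descriptions of 4 against 4 grafts from 1 library each, and a p that missed the threshold does not show that the genotypes were alike.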

How the data were processed

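Raw UMI counts per gene (32285) and cell (22441), deposited by the authors with cluster, cell type and hashtag, were used as deposited. CD45+ PI- cells had been loaded on 10x Genomics 3′ v3.1 with hashtag antibodies. Cell Ranger and mm10 are named in the submitters' processing notes, with versions and the filters on cells not given in the sources used here. No cell lay under 1001 UMIs, and the highest mitochondrial share was 9.74%. No doublet caller was run, and macrophages with T cell UMIs (28) or among the 5% with the most UMIs (361) were left out as alternatives. No column of per-sample values was left unused.

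Macrophage UMIs were summed per graft (859531 to 7661672, at least 10 cells) and tested with edgeR 4.0.16 (filterByExpr, TMM, glmQLFit, glmQLFTest) in R 4.3.3, over 4 groups in 1 fit and 7 contrasts. The edgeR p-values were adjusted by the Benjamini-Hochberg method with a threshold of 0.05, and SE are from the fitted log2 fold change. Shares were compared with exact permutation tests over all reassignments of the grafts within day or genotype. DESeq2 1.42.0 was an alternative, as were other scaling, filters, cells, clusters alone and each graft left out. Python 3.11.15, NumPy 2.4.6, SciPy 1.17.1, pandas 2.3.3, matplotlib 3.10.9 and limma 3.58.1 were used. The fits were tested on simulated data. Same-numbered grafts of a day had correlations of -0.24 to 0.34 of their deviations, not all above 0.1, so the numbers were not taken as pairs.

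The members and gene lists were chosen with earlier results of these data known. Genes named are Lyz2, C1qa, Apoe, Cxcl9, Arg1, Folr2, Cd274, Tgfb1, Osm, H2-Aa, H2-Ab1, H2-Eb1 and Sirpa, per contrast at most 10 a direction with the smallest p past the threshold, per list at most 4 of highest level and 4 of smallest p, and per cluster or type at most 5 with the largest ratio at 20 CPM or more. Other genes given with values, the proteasome group and the gene length comparison were chosen after values were seen. Positions are from GENCODE vM21, and motifs count only letters. Some genes are not reported here.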

Additional observations from a re-analysis of the deposited data

Results flagged for a closer look

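Levels and shares in 152 groups of 4 grafts were examined for 1 graft far from the others, and 9 passed Dixon's 95% value, where chance gives about 1 in 20. In WT day 10 grafts these were Osm (0.8296), with graft 4 at 32.4 CPM and the others at 74.6 to 83.2, and Tbc1d5 (0.898), with graft 2 at 60.7 CPM against 66.1 to 66.7. In Rnls mut day 10 grafts they were Osm (0.8378), with graft 1 at 196 CPM against 94.2 to 111, and Hcar2 (0.872), with graft 4 at 93.2 CPM against 115 to 119. In WT day 17 grafts they were Lyz2 (0.8449), with graft 2 at 8085 CPM against 17011 to 18649.7, Arg1 (0.8599), with graft 3 at 276 CPM against 1.16 to 39.7, and Tbc1d5 (0.9062), with graft 1 at 197 CPM against 143 to 148. In Rnls mut day 17 grafts they were Pid1 (0.8369), with graft 2 at 349 CPM against 272 to 285, and AA467197 (0.8914), with graft 1 at 29.5 CPM against 18.4 to 19.6.

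The genotype effect differed between days for Gm10076 (1.4617), Cmss1 (1.2939) and Nsa2 (0.9012), on the log2 scale as day 17 minus day 10, by the test of the difference itself.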

How the results depend on the processing

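The day difference kept its direction in all but a few results. The share difference between genotypes turned to -27.8 when set against T cells. In cluster 4 alone the day difference of Ciita (-0.025), Ctsz (0.24), Nr1h3 (0.069), Fth1 (0.067) and mt-Nd4l (0.051) was of the opposite sign, and in cluster 5 alone that of Fcer1g (0.013), Ptpn6 (0.13), Hmgb2 (0.037), H2afz (0.13), mt-Nd3 (-0.041) and Ccl5 (0.23). The cause was not tested. Counts of called genes moved by over 1.5 times as follows. DESeq2 called 16 genes between genotypes at day 10, 13 at day 17 and 43 for the difference between days. Without the filter on low counts these were 12 at day 10 and 9 for the difference. With the hashtag number as a replicate block within day, 0 genes were called at day 10 and 1 for the difference, and the cause was not tested. No block was fitted for the day itself, since the days hold different mice. Leaving out the 5% of macrophages with the most UMIs gave 5 for the difference, and fitting each day alone gave 1 at day 10. In cluster 4 alone 1243 genes were called for the day, 299 in WT, 682 in Rnls mut, 1 between genotypes at day 17 and 0 for the difference. In cluster 5 alone these were 476, 87 and 285, with 0 at day 10 and 0 for the difference. Cluster 2 alone gave 139 for the day in WT, cluster 12 alone 28 for the day in WT and 2 between genotypes at day 17, and cluster 13 alone 0 at day 10. Smaller clusters hold fewer UMIs and fewer tested genes.

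With each graft left out in turn, the called genes ranged from 4417 to 4903 (day), 1744 to 2375 (day, WT), 3194 to 4123 (day, Rnls mut), 1 to 4 (genotype, day 10), 0 to 0 (genotype, day 17), 0 to 1 (genotype, both days), 1 to 9 (difference), 326 to 1013 (against monocytes) and 748 to 1089 (against DC). The share difference ranged from 33.4 to 41.7 points for the day and 2.41 to 10.7 points for the genotype. Of the values of named genes under leave-one-out, 2296 kept direction and call, 49 lost and 7 gained the call. Under the other alternatives 1154 kept both, 68 lost, 16 gained and 11 reversed. A minimum of 50 macrophages left every graft in.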
